A study of Mus musculus with 24 samples.

Results

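The genes described here are those of the interferon response measured in dorsal root ganglia of mice, which hold the cell bodies of sensory neurons and their glia. Of 9 genes listed for the response by symbol, Ifit1, Ifit2, Ifit3, Irf7, Irf9, Usp18 and Oasl2 had 1 counted transcript each, so 7 genes stood for the list among 14066 gene symbols in the deposited table. Stat2 and Rsad2 were not analysed here. All 7 transcripts passed the filter on low counts when all libraries were used, Irf7 only narrowly, as given with its values.

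Mice of strain C57B/L6, wild type and 12 weeks old, had the sciatic nerve crushed, and every group shared that injury. Camptothecin groups received 2 mg/kg of camptothecin, an inhibitor of DNA topoisomerase I, into the peritoneum 30 minutes after the crush, and ganglia were taken at 18, 24 or 36 h. Vehicle groups received vehicle and were taken at the same 3 times. There was no uninjured group. RNA was sequenced from whole ganglia, so fewer cells of a type and less RNA per cell cannot be told apart. Libraries numbered 3, 4 and 3 for camptothecin at 18, 24 and 36 h and 3 at each time for vehicle, 19 in all. The deposited columns carry a time, a replicate number and a letter, A or B, and none names its arm. Letter B was read as camptothecin and A as vehicle because the log2 fold changes of camptothecin over vehicle in the authors' deposited table equal the mean of B minus the mean of A of the variance-stabilised values, to within 8.7e-14 in 19571 transcripts at each time. Every arm named here rests on that reading. The labels do not state whether each library is its own animal. The p-values therefore reflect only library-to-library spread, which may be technical.

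Type I interferon binds a cell-surface receptor whose Jak kinases start a signal to the nucleus. IRF9, as part of a transcription factor complex, then binds a short DNA element before many genes, among them the Ifit and Oas families, Irf7 and Usp18. Inhibitors of topoisomerase I are known to damp induction of such genes in infected cells, and the comparison with vehicle shows whether their level differed in injured ganglia.

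The 3 Ifit genes lie on chromosome 19 (build GRCm38, plus strand), with Ifit3b, at chr19:34607970-34613401, between Ifit3 and Ifit1. Ifit2 spans chr19:34550710-34576419, Ifit3 spans chr19:34583531-34588731 and Ifit1 spans chr19:34640871-34650009. Usp18 lies at chr6:121245906-121270917 and Oasl2 at chr5:114896936-114912234, both on the plus strand. Irf7 lies at chr7:141262706-141266421 on the minus strand. The Irf9 transcript, at chr14:55605820-55610027 on the plus strand, is annotated as having a retained intron, and its values stand for that transcript and not for the coding Irf9 mRNA. The other 6 transcripts are annotated as protein coding.

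RefSeq promoter windows (build GRCm38.p6), from 250 bases before to 50 bases after a start site, existed for 6 of the 7 genes, 8 windows in all, and not for Usp18. They were searched on both strands for a repeat of GAAA, 2 copies with any 2 bases between them, which lies at the centre of the element bound by the IRF9 complex, and for its shorter form AANNGAAA, which every match of the longer motif also contains. The longer motif was found in the windows of Ifit1 and Ifit3, with 2 matches each, at 104 and 85 bases before the start in Ifit1 and at 156 and 122 bases before it in Ifit3. Among all 32851 windows, 3.44% held at least 1 match and 0.225% held 2 or more. The shorter form, present in 23.9% of all windows, was likewise found only in Ifit1 and Ifit3 among the 8 windows. The other 6 windows, of Ifit2, Irf7, Irf9 and Oasl2, held neither run of letters. The start sites of the Irf9 windows lie 1835 and 1241 bases before the start of the counted Irf9 transcript. Those windows therefore do not stand for the promoter of that transcript. The windows of Ifit1 (chr19:34640639-34640938) and Ifit3 (chr19:34583279-34583578) are shown 5′ to 3′ on the plus strand because they carry the paired motif, whose matches are in capitals and read on the minus strand.
Ifit1: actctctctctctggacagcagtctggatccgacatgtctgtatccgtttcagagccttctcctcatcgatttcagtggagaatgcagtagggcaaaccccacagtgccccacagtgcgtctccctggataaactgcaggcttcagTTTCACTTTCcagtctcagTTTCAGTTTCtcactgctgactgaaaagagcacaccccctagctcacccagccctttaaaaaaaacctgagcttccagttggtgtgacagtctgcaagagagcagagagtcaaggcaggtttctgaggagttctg
Ifit3: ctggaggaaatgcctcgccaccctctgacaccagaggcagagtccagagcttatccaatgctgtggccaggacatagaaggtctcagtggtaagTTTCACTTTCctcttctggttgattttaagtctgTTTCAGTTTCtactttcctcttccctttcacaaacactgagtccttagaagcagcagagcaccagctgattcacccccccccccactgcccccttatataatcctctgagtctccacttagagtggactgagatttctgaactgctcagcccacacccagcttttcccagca

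Levels differed far more between the genes than between the groups. On the scale of counts scaled by the normalised library total (CPM) per kilobase of transcript, Ifit1 averaged 61.2 ± 16.2, Ifit2 26.3 ± 5.56, Ifit3 10.4 ± 4.30, Usp18 3.27 ± 1.21, Oasl2 1.49 ± 0.469, Irf9 0.611 ± 0.306 and Irf7 0.421 ± 0.203 (SD over 19 libraries). Each of the first 5 exceeded the next in 19 of 19 libraries, whereas Irf9 exceeded Irf7 in 13 of 19, so those neighbours at the bottom of the order were not separated. Ifit1 lay above 94.9% and Ifit2 above 87.9% of tested transcripts per kilobase, while Irf7 lay above only 8.21%. Median counts ran from 1031 for Ifit1 to 7 for Irf7, in that order except for Usp18 (40) and Oasl2 (41). Irf7 had 0 counts in vehicle replicate 2 of 36 h. A count of 0 there allows a level up to 0.732 CPM, from counting error alone. At the median count, counting error alone gives a coefficient of variation of 3.11% for Ifit1 and 37.8% for Irf7, against 22.9% and 53.6% seen within groups.

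Library totals ran between 3617718 and 15041262 counts, and at each time every camptothecin library was deeper than every vehicle library, so depth and treatment cannot be told apart. Totals were 6637121 to 10118815 in camptothecin and 3617718 to 4384429 in vehicle at 18 h, and 9322357 to 10437380 in camptothecin and 3714370 to 5749822 in vehicle at 36 h. The dependence of counts on transcript GC content also differed between the arms at every time. At 18 h the Spearman correlation across transcripts was -0.080 to 0.182 in the camptothecin and -0.312 to -0.226 in the vehicle libraries. At 24 h it was 0.066 to 0.319 in camptothecin and -0.123 to 0.056 in vehicle. At 36 h it was 0.141 to 0.27 in camptothecin and -0.206 to -0.13 in vehicle. The labelled tissue showed its markers: the summed level of 6 sensory neuron genes was 3243 to 4653 CPM, against 0.300 to 14.4 CPM for the 3 lymphocyte genes with a row. At 18 h the neuron sum was 4031 to 4653 CPM in camptothecin and 3383 to 3589.9 CPM in vehicle, and its part in the values of 18 h was not tested.

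The vehicle libraries of 36 h stood apart from each other. The mean z-score of the 7 members, computed for each transcript over the 19 libraries, was highest of all in vehicle replicate 3 of 36 h (1.16) and lowest of all in vehicle replicate 2 of 36 h (-1.71). Replicate 3 also had 54.2 CPM of Cxcl10, an interferon-induced chemokine, against 1.86 to 7.17 CPM in the other 18 libraries, and 5.89 CPM of Isg15, an interferon-induced ubiquitin-like modifier, against 0.794 to 2.04 CPM. It was the highest library for 16 of 82 other interferon pathway transcripts (19.5%), against 7.6% of all tested transcripts. Its summed macrophage markers (141 CPM, range of all libraries 69.0 to 227), neutrophil markers (23.3 CPM, range 3.81 to 88.2) and lymphocyte markers (1.77 CPM) lay within the range of the other libraries. Its summed level was the second highest of 19 for the 2 plasmacytoid dendritic cell genes with a row (11.2 CPM, median of all libraries 7.56) and for satellite glia markers (1746 CPM, median 1349.5), and the part of either was not tested. Of the 11.2 CPM, 9.13 CPM was Bst2, which is also listed here among the interferon-induced effectors. That sum therefore does not stand for the cell type alone, and its markers Siglech and Ccr9 were not analysed here. The members' values at 36 h without each of these libraries are given below the values of all libraries.

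**Figure D1:**
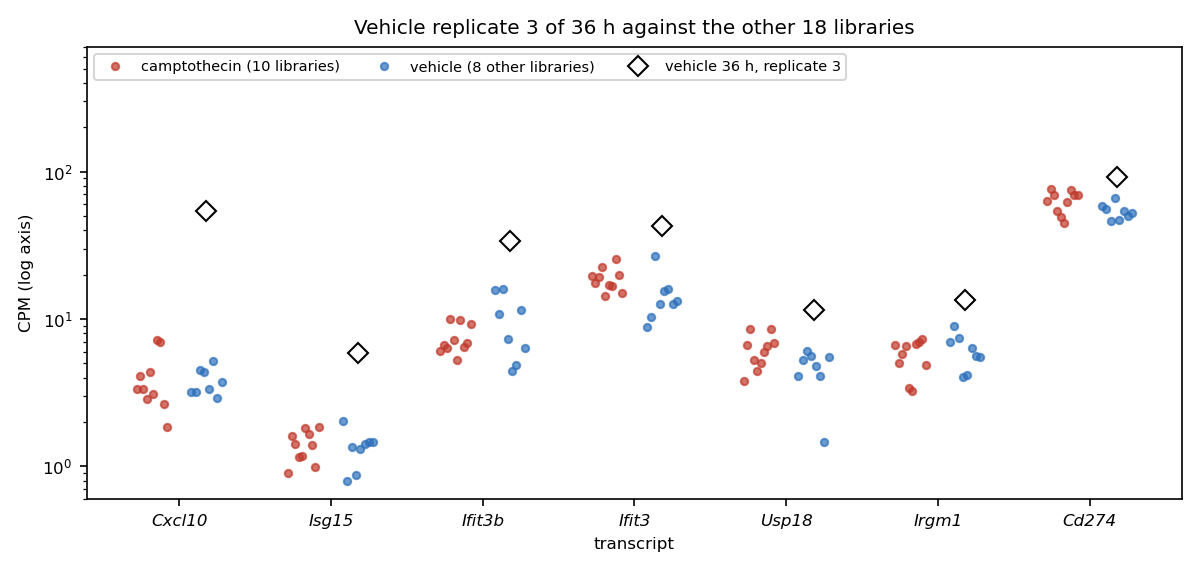
Level of 7 interferon-related transcripts (CPM, log axis) in 10 camptothecin libraries (red), 8 vehicle libraries (blue) and vehicle replicate 3 of 36 h (open diamond). The diamond is the highest point for all 7, most of all for Cxcl10, at 54.2 CPM.

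The first question was whether camptothecin changed these genes. None of the 7 transcripts passed the threshold (edgeR quasi-likelihood test, adjusted p under 0.05) at any time or on average. At 18 h 0 of 7 were called, against 1.58% of 18606 tested transcripts; at 24 h 0 of 7 against 0%; at 36 h 0 of 7 against 2.5%; and averaged over the 3 times 0 of 7 against 10.3%. DESeq2 and limma-voom also called 0 of 7 in each of these 4 comparisons. The background itself moved with single libraries: the calls over all transcripts, 294 at 18 h and 466 at 36 h, were 1 at 18 h without camptothecin replicate 3 of 18 h and 1 at 36 h without vehicle replicate 3 of 36 h, and 723 at 18 h and 1015 at 36 h without vehicle replicate 4 of 36 h. At 18 h they were also 5 and 19 without camptothecin replicates 2 and 4 and 12 and 46 without vehicle replicates 1 and 3 of that time, and 157, 173 and 180 without camptothecin replicate 3 of 24 h, vehicle replicate 3 of 24 h and camptothecin replicate 3 of 36 h. At 36 h they were 8, 258 and 199 without camptothecin replicates 1, 2 and 3 and 73 without vehicle replicate 2 of that time. At 24 h, with 0 calls from all libraries, there was 1 without camptothecin replicate 4 of 24 h and 92 without vehicle replicate 4 of 36 h. At an unadjusted p under 0.05, 1 member passed at 18 h and 0 at 24 h, 36 h or on average, against 14.9%, 7.98%, 15.6% and 23.6% of all tested transcripts. The direction of the values was upward more often than downward: log2 fold changes were above 0 for 6 of 7 members at 18 h, 3 at 24 h, 5 at 36 h and 6 on average, against 48.3%, 50.9%, 48.4% and 51.2% of all transcripts. Their medians were 0.29, -0.07, 0.28 and 0.21, beside -0.02, 0.01, -0.02 and 0.01 over all transcripts. These counts and medians include Irf7, which passed the filter only through camptothecin libraries and was above 0 at 18 h, 36 h and on average.

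**Figure D2:**
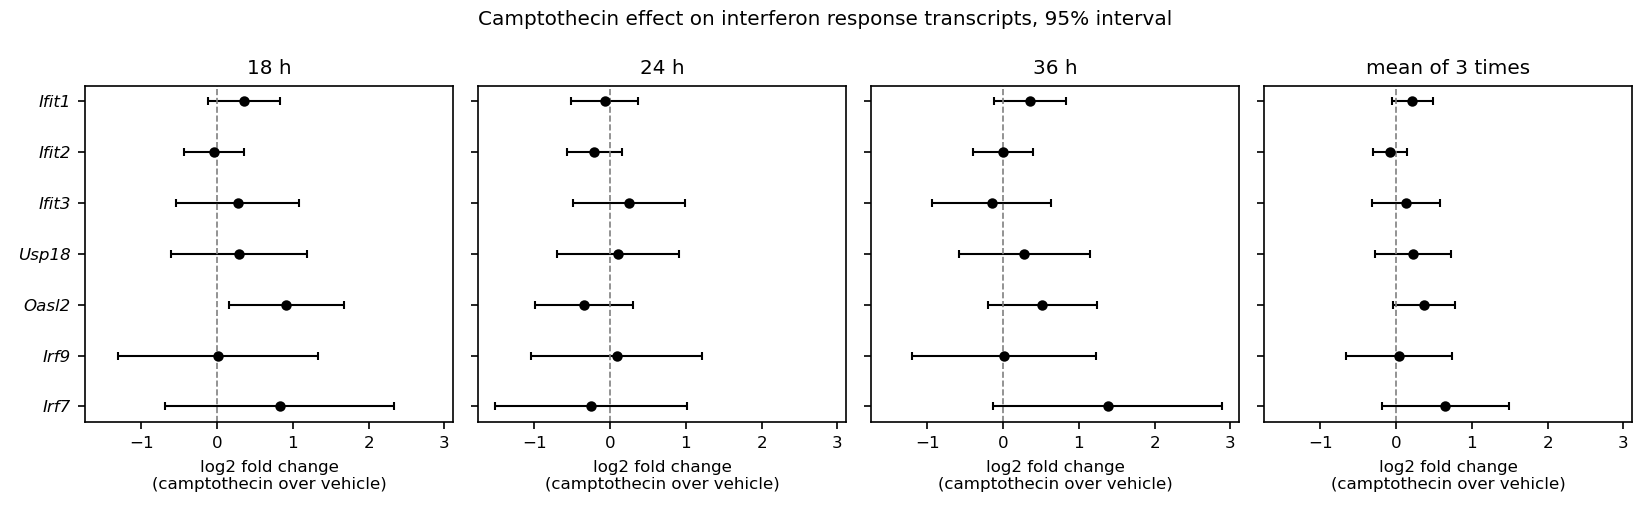
Log2 fold change of camptothecin over vehicle (x axis) for the 7 transcripts at 18, 24 and 36 h and averaged over the 3 times, with 95% intervals from the edgeR fit. The interval of Oasl2 at 18 h, 0.155 to 1.67, lies above 0, and all others include 0.

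The transcription factors of the response come first. Irf9 is the DNA-binding subunit of the complex that interferon activates. Its counted transcript had 0.756, 2.10 and 2.71 CPM in camptothecin and 0.876, 2.12 and 2.49 CPM in vehicle at 18 h. At 24 h the values were 1.27, 1.44, 2.70 and 4.16 CPM in camptothecin and 3.31, 1.91 and 1.58 CPM in vehicle. At 36 h they were 3.93, 3.64 and 1.34 CPM in camptothecin and 1.46, 2.06 and 5.02 CPM in vehicle. The groups overlapped at every time, and the spread within a group exceeded any difference between means. The averaged log2 fold change was 0.04 ± 0.34 (SE, adjusted p = 0.962), with a 95% interval of 0.631-fold to 1.67-fold.

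Irf7 encodes the factor that drives the late wave of interferon gene transcription and is itself interferon-induced. It had 1.21, 1.40 and 1.03 CPM in camptothecin at 18 h, against 0.584, 0.529 and 0.904 CPM in vehicle. Those groups did not overlap, with every camptothecin library higher, as for 8.07% of all transcripts; these levels rest on 8 to 14 counts in camptothecin and 2 to 4 in vehicle, and the log2 fold change was 0.82 ± 0.73 (adjusted p = 0.683). At 24 h it had 1.38, 0.392, 1.03 and 0.581 CPM in camptothecin and 1.05, 0.837 and 1.11 CPM in vehicle, which overlapped. At 36 h it had 2.06, 1.08 and 1.03 CPM in camptothecin and 0, 1.18 and 0.486 CPM in vehicle. Only vehicle replicate 3 reached the camptothecin values there, and the log2 fold change, the largest of any member, was 1.38 ± 0.73 (unadjusted p = 0.0719, adjusted p = 0.374). Irf7 passed the filter on low counts only through camptothecin libraries. The filter asks for the CPM that 10 counts give at the median library total, and no vehicle library reached it. Vehicle libraries had at most 7 counts and 1.18 CPM of Irf7. The filter therefore favoured a higher value in camptothecin. At each time Irf7 was kept in 10 of 19 fits that left out a library and 10 of 12 other settings. Of the exons of Irf7, 2.01% of bases also lie under exons of Phrf1 on the other strand.

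Among the effectors, the Ifit genes encode proteins of tetratricopeptide repeats that bind foreign RNA or each other and block its translation. Ifit1, the most abundant member, had 235, 248 and 169 CPM in camptothecin at 18 h, against 147, 200.3 and 162 CPM in vehicle. At 24 h it had 119, 106, 126 and 174 CPM in camptothecin, against 158, 118 and 137 CPM in vehicle. At 36 h it had 180.1, 189.8 and 184 CPM in camptothecin, against 82.2, 204 and 147 CPM in vehicle. The 3 camptothecin libraries of 36 h lay close together, while the vehicle libraries spread on both sides of them. Log2 fold changes were 0.36 ± 0.23 at 18 h (adjusted p = 0.525), -0.07 ± 0.21 at 24 h (adjusted p = 0.973) and 0.35 ± 0.23 at 36 h (adjusted p = 0.487). The average was 0.21 ± 0.13, with a 95% interval of 0.961-fold to 1.40-fold. With a correction for GC content together with a block for replicate number, the average was 0.43 and was called (adjusted p = 0.0141). That setting called 1319 of the 18606 tested transcripts on average. With the GC correction alone the adjusted p of Ifit1 was 0.0979.

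Ifit2, whose promoter windows held no match of the motif, had the narrowest interval of the 7 for the averaged effect. It had 93.8, 106 and 102 CPM in camptothecin and 89.6, 119 and 102 CPM in vehicle at 18 h. It had 63.3, 74.5, 81.6 and 97.3 CPM in camptothecin and 122, 65.5 and 87.3 CPM in vehicle at 24 h. It had 119, 113 and 119 CPM in camptothecin and 98.3, 149 and 106 CPM in vehicle at 36 h. The groups overlapped at all 3 times, and the averaged log2 fold change was -0.08 ± 0.11 (adjusted p = 0.688). Its 95% interval ran from 0.808-fold to 1.10-fold.

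Ifit3, which in human cells binds and stabilises IFIT1, had 19.5, 17.5 and 19.2 CPM in camptothecin and 8.76, 10.3 and 26.7 CPM in vehicle at 18 h. The camptothecin libraries agreed closely, and vehicle replicate 4 lay above them while the other two lay below. At 24 h it had 22.6, 14.4, 16.9 and 16.7 CPM in camptothecin and 12.7, 15.5 and 16.0 CPM in vehicle. At 36 h it had 25.4, 19.8 and 14.98 CPM in camptothecin and 12.7, 42.4 and 13.3 CPM in vehicle. Vehicle replicate 3 alone lay above the camptothecin libraries at 36 h. The averaged log2 fold change was 0.12 ± 0.22 (adjusted p = 0.783).

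Ifit3 values depend on how reads were divided with its near-identical neighbour Ifit3b, since 51.2% of the 50-base windows of Ifit3 also occur in Ifit3b. Of their summed CPM, Ifit3 held 72.3% to 76.3% in camptothecin and 35.7% to 62.4% in vehicle at 18 h, which did not overlap. The share was 62.8% to 76.3% in camptothecin and 63.5% to 77.8% in vehicle at 24 h, and 61.7% to 79.7% in camptothecin and 52.5% to 67.8% in vehicle at 36 h, and these overlapped. Ifit3b itself had 6.05, 6.71 and 6.32 CPM in camptothecin and 15.8, 10.8 and 16.1 CPM in vehicle at 18 h. Every camptothecin library was lower, as for 11% of all transcripts, and the log2 fold change of -1.16 missed the threshold (adjusted p = 0.170). At 24 h Ifit3b averaged 8.08 ± 2.31 CPM in camptothecin (n = 4) and 5.55 ± 1.55 CPM in vehicle (SD, n = 3). Summed, the 2 genes had 25.1 ± 0.753 CPM in camptothecin and 29.5 ± 11.6 CPM in vehicle at 18 h (SD, n = 3 each), and these sums overlapped. Ifit1 shares 7.13% of its windows with other genes, nearly all with Ifit1bl2, and Ifit2, Irf7, Oasl2 and Usp18 share none.

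Oasl2 encodes an oligoadenylate synthetase-like protein with ubiquitin-like domains. It had 5.44, 7.51 and 4.25 CPM in camptothecin at 18 h, against 2.63, 2.38 and 4.07 CPM in vehicle, and every camptothecin library was higher, as for 8.07% of all transcripts. Its log2 fold change there, 0.91 ± 0.36, had the smallest p of any member in this contrast (unadjusted p = 0.0205, adjusted p = 0.225). At 24 h it had 5.19, 3.92, 3.25 and 4.75 CPM in camptothecin, against 3.66, 5.38 and 7.12 CPM in vehicle, and the log2 fold change was -0.34 ± 0.31 (adjusted p = 0.871). At 36 h it had 5.81, 5.91 and 5.37 CPM in camptothecin, against 2.196, 5.01 and 4.70 CPM in vehicle. Every camptothecin library was again higher, as for 9.6% of all transcripts, with a log2 fold change of 0.52 ± 0.35 (adjusted p = 0.504). The difference of the effect at 24 h from that at 18 h was -1.25 ± 0.48 (unadjusted p = 0.0157, adjusted p = 0.9999).

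Usp18 encodes the inhibitor of the response, a protease that removes Isg15 from proteins and also blocks the interferon receptor. It had 3.78, 6.61 and 8.51 CPM in camptothecin and 4.09, 5.29 and 6.10 CPM in vehicle at 18 h. It had 5.30, 4.44, 5.00 and 6.004 CPM in camptothecin and 5.58, 4.78 and 4.11 CPM in vehicle at 24 h. It had 6.56, 8.57 and 6.82 CPM in camptothecin and 1.46, 11.5 and 5.51 CPM in vehicle at 36 h. The vehicle libraries of 36 h included both the lowest and the highest value of all 19, a 7.85-fold range. The averaged log2 fold change was 0.22 ± 0.24 (adjusted p = 0.624). Of its exonic bases, 7.0% lie under an exon of Gm44148 on the minus strand.

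**Figure D3:**
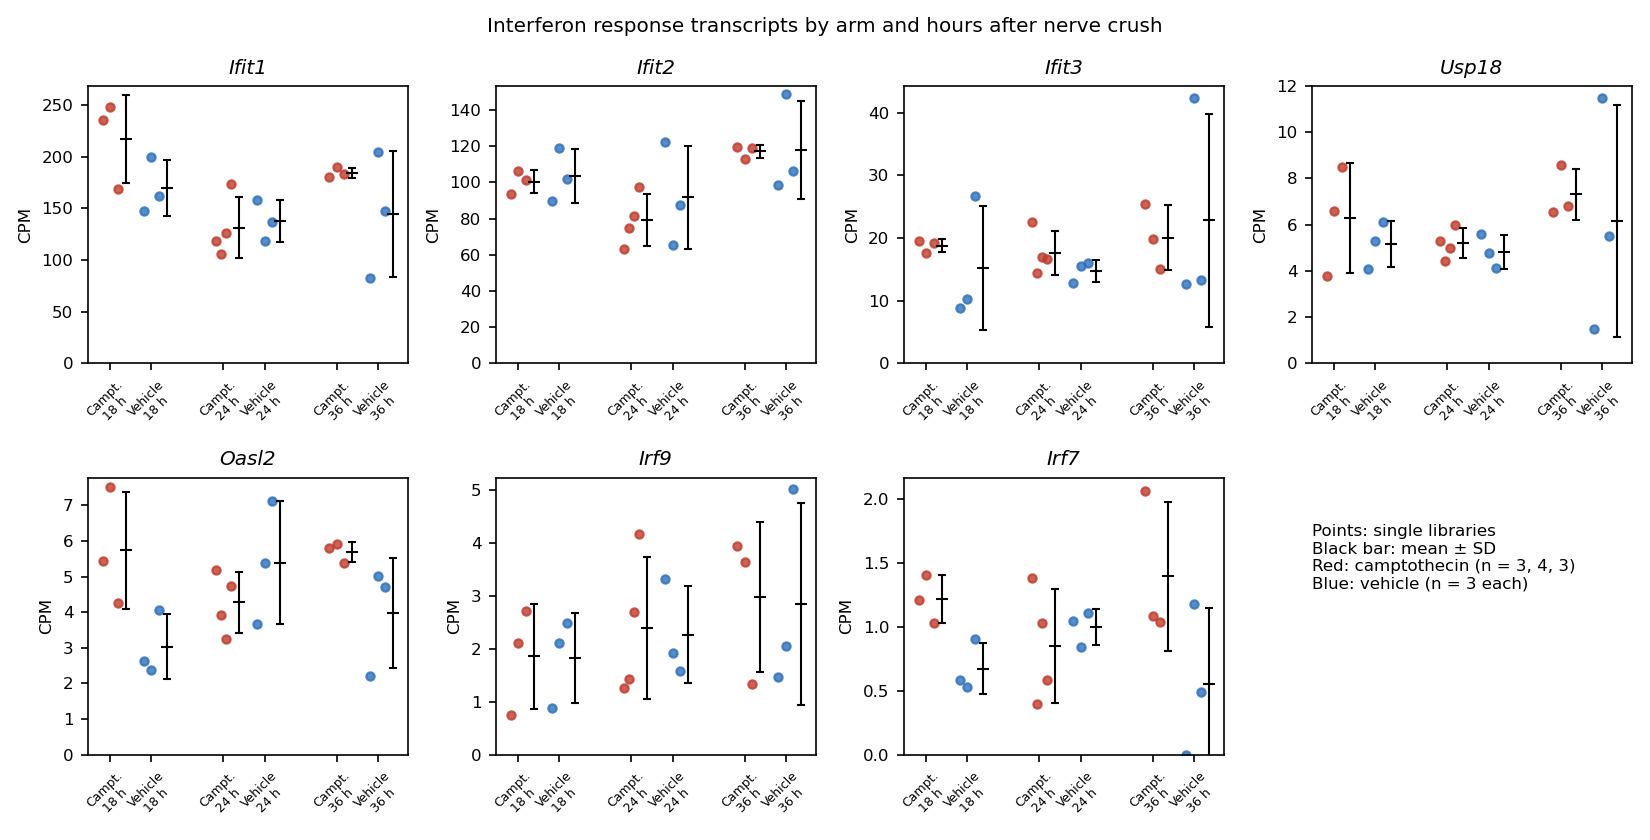
Level (CPM) of the 7 transcripts in each library of camptothecin (red) and vehicle (blue) at 18, 24 and 36 h, with mean ± SD beside each group. Groups overlap except for Oasl2 and Irf7 at 18 h and Oasl2 at 36 h, where every camptothecin library is higher.

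At 36 h the direction rested on single vehicle libraries. Replicates 3 and 2 of vehicle held the members' highest and lowest mean z-scores, so leaving either out shifts their values by that choice. The share of all transcripts at an unadjusted p was not taken in these fits, so such counts have no background. Without vehicle replicate 3 the median log2 fold change of the 7 members was 0.68, with 6 above 0. Ifit1 (0.68), Irf7 (2.26) and Usp18 (1.01) had an unadjusted p under 0.05, the lowest adjusted p being 0.213. Of these, Irf7 passed the filter only through camptothecin libraries. Over all transcripts that fit called 1. Without vehicle replicate 2 the median was -0.11, with 3 above 0, and no member had an unadjusted p under 0.05. In that fit the values were 0.08 for Ifit1, -0.11 for Ifit2, -0.43 for Ifit3, 0.83 for Irf7, -0.29 for Irf9, 0.24 for Oasl2 and -0.18 for Usp18. The other values without replicate 3 were 0.20 for Ifit2, 0.63 for Ifit3, -0.16 for Irf9 and 0.69 for Oasl2. Without replicate 4 the median was 0.37. No member was called in any of these fits. At 36 h 7 of 13 Schwann cell marker transcripts had every camptothecin library higher (9.6% of all transcripts), although their summed level overlapped, at 1697 to 2422 CPM in camptothecin and 1345 to 2610 CPM in vehicle. The summed fibroblast markers were 911 to 1169 CPM in camptothecin and 690.4 to 879 CPM in vehicle; their part in the values of the members was not tested.

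**Figure D4:**
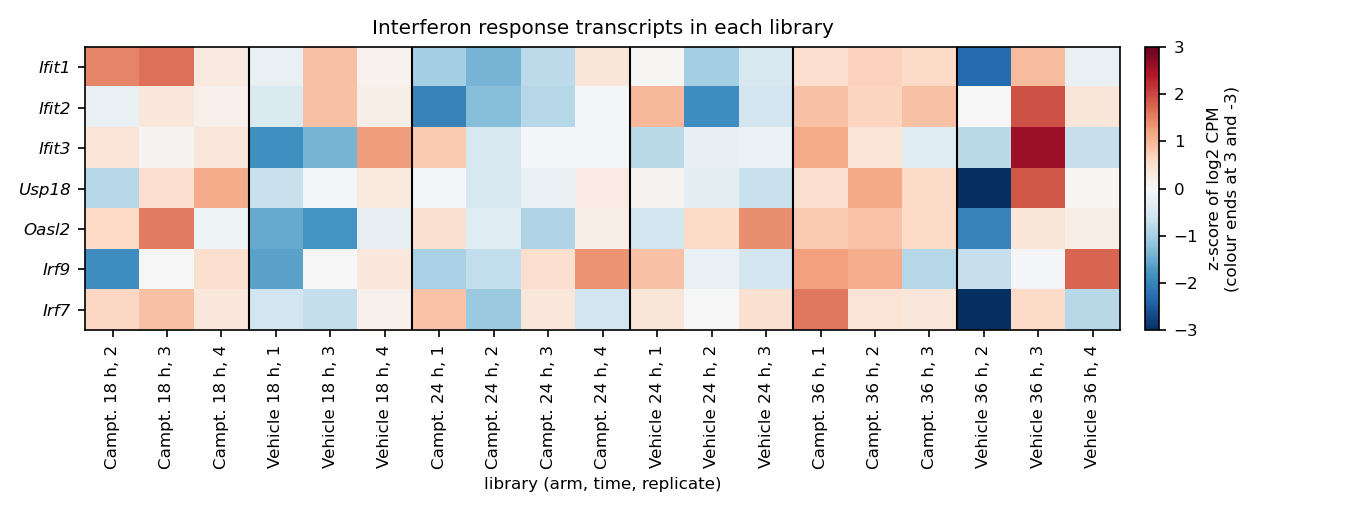
Z-score of log2 CPM for the 7 transcripts (rows) in 19 libraries (columns, camptothecin left of vehicle at each time), with red above and blue below a transcript's mean. Vehicle replicate 2 of 36 h is mostly blue and vehicle replicate 3 of 36 h is red for Ifit1, Ifit2, Ifit3 and Usp18.

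Whether the effect of camptothecin differed between times was tested as a difference of differences. The edgeR test called 0 of 7 members for 24 h minus 18 h (background 0%), 36 h minus 18 h (background 0.0107%) and 36 h minus 24 h (background 0%), and DESeq2 and limma-voom also called 0 of 7. At an unadjusted p under 0.05 the counts were 1, 0 and 0, the 1 being Oasl2, against 4.22%, 4.95% and 3.34% of all transcripts. The median differences were -0.18, -0.00486 and 0.20 on the log2 scale.

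Within the camptothecin arm, members were higher at 36 h than at 24 h in every case, though none passed the threshold. The 7 log2 fold changes of 36 h over 24 h lay between 0.19 and 0.74 with a median of 0.49, beside -0.00319 over all transcripts. Ifit1, Ifit2, Oasl2 and Usp18 had all 3 libraries of 36 h above all 4 of 24 h, against 4.68% of all transcripts. Ifit2 averaged 117 ± 3.60 CPM at 36 h (n = 3) and 79.2 ± 14.3 CPM at 24 h (SD, n = 4), a log2 fold change of 0.57 ± 0.17 (unadjusted p = 0.00386, adjusted p = 0.370). Ifit1 averaged 185 ± 4.91 CPM at 36 h and 131 ± 29.5 CPM at 24 h, a change of 0.49 ± 0.21 (adjusted p = 0.686). Between 24 h and 18 h the same arm went the other way for 6 of 7 members, beside a median of -0.00455 over all transcripts. Ifit1 had 131 ± 29.5 CPM at 24 h against 217 ± 42.4 CPM at 18 h (SD, n = 3), a log2 fold change of -0.73 ± 0.21 (unadjusted p = 0.0023, adjusted p = 0.962). Because members varied together across libraries, 6 or 7 in the same direction are not separate observations. Irf7 rests on 6 to 22 counts at 24 h and 36 h in this arm. In vehicle the means went both ways from 24 h to 36 h, and every change was smaller than the SD at 36 h (n = 3). The means rose for Ifit1 (138 to 145 ± 61.1 CPM), Ifit2 (91.7 to 118 ± 27.3) and Ifit3 (14.7 to 22.8 ± 17.0). They also rose for Irf9 (2.27 to 2.85 ± 1.91) and Usp18 (4.82 to 6.15 ± 5.04). They fell for Irf7 (0.997 to 0.555 ± 0.592) and Oasl2 (5.39 to 3.97 ± 1.54). For Ifit3 only vehicle replicate 3 of 36 h lay above the 24 h mean. A rise shared with vehicle is therefore not shown. From 18 h to 24 h vehicle means fell for the 3 Ifit genes and Usp18 and rose for Irf7, Irf9 and Oasl2.

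Counting calls by edgeR, 0 of 7 members passed for 24 h against 18 h (background 0%), 36 h against 18 h (0.511%) and 36 h against 24 h (0.161%) in camptothecin, or for the same contrasts in vehicle (0.231%, 1.44% and 0.145%), and DESeq2 and limma-voom called 0 of 7 in each. Unadjusted p was under 0.05 for 1, 0 and 2 members in camptothecin, against 5.05%, 11.2% and 6.53% of all transcripts, and for 1, 0 and 0 in vehicle, against 12.3%, 11.8% and 8.12%. In 36 h against 18 h in camptothecin only Ifit2 had groups that did not overlap, higher at 36 h as for 9.62% of all transcripts. In vehicle, Oasl2 had 5.39 ± 1.73 CPM at 24 h and 3.03 ± 0.912 CPM at 18 h (SD, n = 3 each), a log2 fold change of 0.82 ± 0.37 (unadjusted p = 0.0372, adjusted p = 0.374). The summed macrophage markers were 69.0 to 96.4 CPM at 18 h, 96.1 to 148 CPM at 24 h and 164 to 227 CPM at 36 h in camptothecin. They moved with the members between 24 h and 36 h, and not between 18 h and 24 h, where 6 of 7 members had a lower value at 24 h; their part in the values of the members was not tested.

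The members varied together across libraries. Over 19 libraries the 21 pairs of members had a median Pearson r of log2 CPM of 0.44, from -0.00956 for Ifit2 with Oasl2 to 0.70 for Irf7 with Oasl2, and 20 of 21 were above 0. With group means subtracted the median was 0.50. Without the 2 libraries farthest from the median z-score, which were the vehicle replicates 2 and 3 of 36 h, the median fell to 0.30 over 17 libraries, with 18 of 21 above 0. These are descriptions of libraries that also share depth and composition.

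Among 12951 other transcripts with at least 2 CPM, the 8 most like the members' mean z-score over 19 libraries were Wwc1 (r = 0.80), Asah1 (0.77), Mtmr7 (0.76), Znf512b (0.73), Cd274 (0.72), Nubpl (0.71), Gm12696 (0.71) and Ogfr (0.71). Cd274 encodes the checkpoint ligand PD-L1 and was the most abundant of these, at 60.8 CPM. Without the same 2 libraries, r was 0.74 for Asah1 and 0.67 for Cd274 and Gm12696, and it lay between 0.46 and 0.64 for the others. The 60 pathway transcripts among the candidates had a median r of 0.15, beside -0.02 over all candidates, and Ifi44 (0.51) and Cxcl10 (0.48) were highest among them.

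The other genes of the interferon pathway were taken from 6 lists by role and a list of ligands. Of 110 listed genes 69 had a row, and 82 transcripts of 66 genes were tested; none of the 10 ligand genes was analysed here. At 18 h and 24 h 0 of 82 transcripts were called by edgeR, against 1.58% and 0% of all transcripts. At an unadjusted p under 0.05 there were 6 and 0, against 14.9% and 7.98% of all transcripts. At 36 h 1 of 82 was called lower, against 2.32% of all transcripts. On average 3 of 82 were lower and 0 higher, against 7.69% and 2.59% of all transcripts, so the pathway's share of calls was below the background. All 3 were among the 41 interferon-induced effector transcripts.

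The receptors and their kinases (12 transcripts), nucleic acid sensors and adaptors (11), transcription factors (6), antigen presentation genes (7) and inhibitors (5) had no call in any contrast. The most abundant transcripts of these lists and of the effectors showed small differences. Jak1, the receptor-associated kinase, had 909 ± 20.8 CPM in camptothecin and 771 ± 27.1 CPM in vehicle at 18 h (SD, n = 3 each). Every camptothecin library was higher, as for 8.07% of all transcripts, with an edgeR log2 fold change of 0.24 ± 0.08 (unadjusted p = 0.00901, adjusted p = 0.151). Averaged over times, log2 fold changes were 0.03 ± 0.07 for Tbk1, the kinase below the nucleic acid sensors, 0.04 ± 0.06 for the RNA-activated kinase gene Eif2ak2, 0.04 ± 0.10 for B2m, the light chain of class I antigen-presenting molecules, and 0.07 ± 0.07 for Pias1, which encodes an inhibitor of the signal.

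Oas3, Cmpk2 and Samd9l were the called effectors, and all 3 were lower in camptothecin. Oas3, which makes the oligoadenylate that activates RNase L, had 9.38, 0.901 and 1.805 CPM in camptothecin and 4.38, 12.4 and 10.9 CPM in vehicle at 18 h. At 24 h it had 4.15, 1.37, 2.38 and 1.74 CPM in camptothecin and 5.58, 0.239 and 4.27 CPM in vehicle, and the arms overlapped at both of these times. At 36 h it had 3.18, 2.46 and 2.07 CPM in camptothecin, against 20.5, 30.3 and 5.996 CPM in vehicle, so every camptothecin library was lower, as for 8.7% of all transcripts. Its log2 fold change at 36 h was -2.85 ± 0.76 (adjusted p = 0.0480, against 2.32% of transcripts called lower) and on average -1.52 ± 0.43 (adjusted p = 0.0266). The 36 h call was lost in 11 of 19 fits that left out a library, with adjusted p of 0.00739 to 0.233, the libraries being vehicle replicates 1, 3 and 4 of 18 h, 3 of 24 h and 2 and 3 of 36 h and camptothecin replicates 2 and 3 of 24 h and 1, 2 and 3 of 36 h. Without vehicle replicate 3 of 36 h the value was -2.33 (adjusted p = 0.233). The average lost its call in 7 of 19 such fits (camptothecin replicates 3 and 4 of 18 h and 3 of 36 h, vehicle replicates 3 of 18 h, 1 and 3 of 24 h and 3 of 36 h), and limma-voom called neither. The 36 h call was also lost in 5 of 12 other settings: with no filter on low counts (adjusted p = 0.0504), with the GC correction (0.0920), with thinned counts (0.0557), with limma-voom (0.106) and with the depth covariate. The average lost its call in 2 of 11 such settings, limma-voom and the depth covariate.

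Cmpk2, an interferon-induced mitochondrial nucleotide kinase, had 36.0, 44.2 and 39.5 CPM in camptothecin and 62.2, 75.7 and 63.5 CPM in vehicle at 18 h, every camptothecin library being lower, as for 11% of all transcripts. It had 23.8, 31.1, 28.4 and 30.8 CPM in camptothecin and 44.8, 29.5 and 43.2 CPM in vehicle at 24 h. It had 38.5, 41.2 and 38.3 CPM in camptothecin and 57.8, 89.8 and 30.1 CPM in vehicle at 36 h. Only at 18 h did the arms separate, and the averaged log2 fold change was -0.59 ± 0.14 (adjusted p = 0.00736). This call held in all 19 fits that left out a library, the value without vehicle replicate 3 of 36 h being -0.45 (adjusted p = 0.0185).

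Samd9l, an interferon-induced gene whose product restricts poxviruses and cell growth, had 68.5, 58.5 and 52.7 CPM in camptothecin and 113, 97.4 and 73.7 CPM in vehicle at 18 h, again with every camptothecin library lower (11% of all transcripts). At 24 h it averaged 49.7 ± 7.23 CPM in camptothecin (n = 4) and 65.9 ± 17.2 CPM in vehicle (SD, n = 3), and at 36 h 58.8 ± 6.97 CPM in camptothecin and 98.5 ± 38.3 CPM in vehicle (n = 3 each). The averaged log2 fold change was -0.60 ± 0.13 (adjusted p = 0.00407). Its transcript has a GC content of 38.8%, and with a correction for GC content the value was -0.22 and not called (adjusted p = 0.489). With library depth (log2 total) added as a covariate, the averages were 1.28 for Oas3, -0.20 for Cmpk2 and 0.22 for Samd9l, none called. Red cell markers were also lower in camptothecin at 36 h, with a summed level of 3.15 to 10.7 CPM, against 33.0 to 88.1 CPM in vehicle. Of these genes 4 of 5 were lower without overlap, as for 8.7% of all transcripts. Within vehicle at 36 h, replicate 3 had the lowest red cell sum (33.0 CPM) and the highest Oas3, Cmpk2 and Samd9l. At 18 h the sums overlapped, at 4.90 to 35.4 CPM in camptothecin and 24.5 to 41.3 CPM in vehicle. The part of red cells in the result was not tested.

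**Figure D5:**
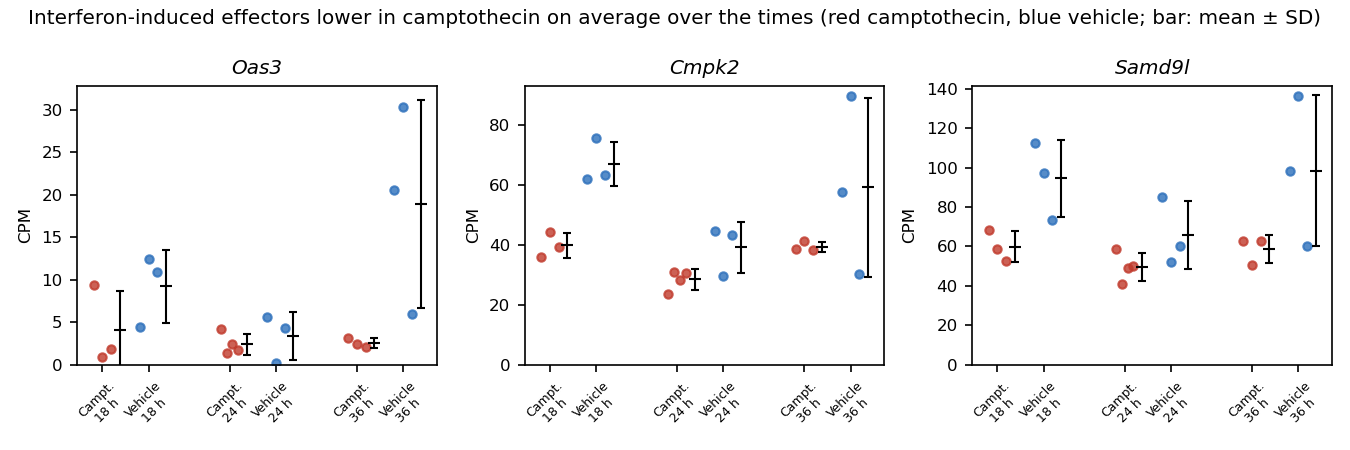
Level (CPM) of Oas3, Cmpk2 and Samd9l in each library of camptothecin (red) and vehicle (blue) at 18, 24 and 36 h, with mean ± SD beside each group. Cmpk2 and Samd9l at 18 h and Oas3 at 36 h have every camptothecin library below every vehicle library.

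The authors' deposited table gave fold changes on its own log2 scale of variance-stabilised values. In the authors' deposited table no member had an adjusted p under 0.05 at any time, the lowest being 0.172 for Oasl2 at 18 h, where the log2 fold change was 0.33. In the authors' deposited table Irf7 at 36 h had a log2 fold change of 0.30 (p = 0.0237, adjusted p = 0.237).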

How the data were processed

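Whole-ganglion RNA was counted per transcript. Per the file headers, the authors deposited raw counts for 19 libraries, variance-stabilised values on a log2 scale, and log2 fold changes with p-values for each time. The submitters' processing notes name build mm10, limma and CASAVA 1.8.2. For the aligner, counter, annotation and strand setting, the entry is: not given in the sources used here. Samples with no column, 5 of 24, were not analysed here. No column names its arm: letters were assigned to arms by recomputing the authors' named contrasts from the deposited values, not from a label. The main test was edgeR 4.0.16 under R 4.3.3 on these counts (TMM, minimum count 10, minimum total 15, 6 group means, 18606 transcripts, Benjamini-Hochberg adjusted p under 0.05). The other tools were DESeq2 1.42.0 and limma 3.58.1, and the scripts were tested on simulated data. The members and lists were chosen with earlier results of these data known. All members were named, with the most abundant transcript of each pathway list (1 is not reported here), each pathway transcript called, and the 8 transcripts most like the members; Cxcl10, Isg15 and Ifit3b were named after their values were seen. Intervals cover 95%; limits from a count of 0 use 3 counts and cover counting error only.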

Additional observations from a re-analysis of the deposited data

Results flagged for a closer look

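The measured difference of camptothecin from vehicle in Oasl2, an oligoadenylate synthetase-like gene, was below 0 at 24 h and above 0 at 18 h and 36 h. Its vehicle libraries held 9 to 18 counts at 18 h, 21 to 45 at 24 h and 9 to 29 at 36 h. Every camptothecin library lay above the vehicle mean at 18 h and at 36 h and below it at 24 h. The effect at 24 h minus that at 18 h was -1.25 ± 0.48 on the log2 scale (SE, edgeR, unadjusted p = 0.0157, adjusted p = 0.9999). The effect at 36 h minus that at 24 h was 0.86 ± 0.46 (unadjusted p = 0.0785, adjusted p = 0.9997). Neither difference passed the threshold, and the cause was not tested.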

How the results depend on the processing

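The count of members called stayed at 0 in every comparison and alternative run, except that the GC correction with the replicate block called 1 member on average, Ifit1 at 0.43 (adjusted p = 0.0141). In that setting 1319 of the 18606 tested transcripts were called on average. Irf7 was not tested in the alternatives where it failed the filter. It was kept in 10 of 19 fits that left out a library. Replicate numbers were not taken to pair the samples, since the correlation of deviations between same-numbered libraries of a time was -0.301 to 0.234, over 0.1 in 3 of 7 pairs. Over all times it was over 0.1 in 19 of 37 pairs, including all 6 of replicate 1 (0.110 to 0.278) and all 6 of replicate 4 (0.234 to 0.474), but 2 of 10 of replicate 2 and 5 of 15 of replicate 3. With the replicate block, 435, 0, 845 and 2410 of all transcripts were called at 18 h, 24 h, 36 h and on average, against 294, 0, 466 and 1913 without it. Over all alternatives other than left-out libraries these counts were 0 to 961, 0 to 124, 0 to 974 and 0 to 2580.

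Leaving out 1 library gave 1 to 723, 0 to 92, 1 to 1015 and 1427 to 2503 calls. The sign of log2 fold changes of camptothecin over vehicle turned as follows; the called Oas3 (-2.85 at 36 h, -1.52 on average) and Samd9l (-0.60) turned under the depth covariate. With the replicate block, Ifit2 was 0.026 at 18 h and 0.027 at 36 h, Irf9 -0.29 at 24 h and Usp18 -0.013 at 24 h. With the GC correction, Ifit2 was 0.20 at 18 h, 0.28 at 36 h and 0.14 on average, Irf9 -0.034 at 18 h, -0.015 at 36 h and -0.0096 on average, and Ifit1 0.036 at 24 h. With the GC correction and replicate block, Ifit2 was 0.28 at 18 h, 0.24 at 36 h and 0.17 on average, Ifit1 0.062, Irf9 -0.31 and Usp18 -0.047 at 24 h. With the log2 library total as covariate, Ifit2 was 0.19 at 18 h, 0.26 at 36 h and 0.14 on average. Irf9 was -0.68 at 18 h, -0.42 at 24 h, -0.72 at 36 h and -0.61 on average, Ifit1 0.14 and Irf7 0.25 at 24 h, Ifit3 0.55 at 36 h, Oas3 0.72 at 36 h and 1.28 on average, and Samd9l 0.22 on average. With counts thinned to the shallowest library, Irf9 was -0.21, -0.056, -0.22 and -0.16 at 18 h, 24 h, 36 h and on average. With limma-voom, Irf9 was -0.069, -0.019, -0.067 and -0.052, and at 36 h Ifit2 was 0.032 and Ifit3 0.13. With only the groups compared, which gives no average, Ifit2 was 0.0037 at 18 h and 0.0055 at 36 h and Irf9 -0.0036 at 36 h. At 36 h Ifit2 was 0.00065 with RLE size factors, and Irf9 was -0.019 with the stricter filter and -0.024 with transcripts summed per gene. The cause was not tested.

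Leaving out 1 library at a time gave -0.11 to 0.10, -0.40 to 0.055, -0.11 to 0.20 and -0.15 to 0.0032 for Ifit2 at 18 h, 24 h, 36 h and on average, and -0.33 to 0.36, -0.28 to 0.44, -0.29 to 0.77 and -0.076 to 0.29 for Irf9. It gave -0.21 to 0.043 for Ifit1 at 24 h, -0.44 to 0.63 for Ifit3 at 36 h and -0.18 to 1.01 for Usp18 at 36 h. Alternatives for Oas3, Cmpk2, Samd9l, the counts over all transcripts and the correlations without 2 libraries were chosen after seeing the data. Depth limits Irf7, at a median of 7 counts, most.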
